A study of Capra hircus with 20 samples.

Results

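The fatty acid oxidation genes described here are CPT1A, CPT2, ACADVL, ACADM, ACADSB, HADHA, HADHB, ETFDH and PDK4, taken by official symbol from the deposited table of mRNA FPKM with the transcripts of a symbol summed. Of these 9 genes, 8 were found among the 20587 symbols of the table, and ACADM was not analysed here. FPKM is the number of fragments per kilobase of transcript, scaled to the mapped fragments of the library, so levels of different genes are compared per length. All 8 genes averaged 1 FPKM or more across the 20 libraries and were tested with every other symbol that did so, 11432 in all.

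Mitochondria burn long-chain fatty acids by beta-oxidation. A fatty acid is first joined to coenzyme A, carried across the mitochondrial membranes as a carnitine ester, and then shortened a pair of carbons at a time by a dehydrogenase, a hydratase, a second dehydrogenase and a thiolase. The acetyl-CoA made in this way feeds the citric acid cycle, and the electrons taken by the acyl-CoA dehydrogenases pass through the electron transfer flavoprotein to ubiquinone. Pyruvate dehydrogenase kinases, PDK4 among them, phosphorylate and thereby inhibit pyruvate dehydrogenase, which lowers the entry of glucose carbon while fat is burnt. Fat cells mainly store fatty acids, and several of these genes are known targets of the fatty acid-activated PPAR receptors.

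Cells came from 7-day-old male Jianzhou Daer goats, intramuscular cells from the longissimus dorsi muscle and subcutaneous cells from subcutaneous fat. Intramuscular and subcutaneous preadipocytes (IMPA, SPA) were collected on day 0, and the adipocytes (IMA, SA) after 3 days in induction medium with oleic acid, with 5 libraries in each of the 4 groups. No genotype or other agent is given for any group, and all cells were grown in DMEM/F12 with fetal bovine serum and used at passage 3. Differentiation, time in culture and oleic acid came together in IMA and SA and cannot be told apart. The study's methods call the libraries of a group biological replicates but do not tie them to goats, so the p values below measure the spread between these libraries. Each comparison asks either how the genes changed with induction within a cell type or how the cell types differed at one stage.

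The cell type labels were checked against marker genes. The summed level of 13 skeletal muscle markers, among them MYOG, DES and ACTA1, was 2653 to 3055 FPKM in IMPA and 9035 to 9667 FPKM in IMA, against 6.88 to 19.6 FPKM in SPA and 7.47 to 8.92 FPKM in SA. The intramuscular libraries therefore held abundant muscle transcripts at both stages. The highest subcutaneous sum, 19.6 FPKM, was that of SPA replicate 1. Without that library the counts of called oxidation genes given below stayed at 6 in SA against SPA, 6 in IMPA against SPA and 5 in the interaction. Of the adipocyte markers, ADIPOQ, PLIN1, PLIN4, LEP and DGAT2 were under 1 FPKM in every library, IMA and SA included. The others differed in direction. As means of IMPA, IMA, SPA and SA, LPL was at 1.02, 0.941, 0.549 and 1.34 FPKM and PPARG at 0.475, 0.364, 0.624 and 1.03. In the same order CIDEC was at 0.333, 0.318, 4.65 and 4.35 FPKM and GPD1 at 1.44, 1.62, 1.81 and 1.44. CEBPA was at 9.23, 5.42, 5.05 and 3.91 FPKM and AGPAT2 at 7.33, 6.58, 8.55 and 9.55. The summed level of the 11 adipocyte markers in the table was 19.5 to 21.6 FPKM in IMPA, 15.2 to 17.3 FPKM in IMA, 21.4 to 22.7 FPKM in SPA and 21.3 to 24.1 FPKM in SA. The 7 endothelial markers were each under 1 FPKM in every library, as were 4 of the 6 macrophage and leukocyte markers, PTPRC among them. The other 2 were present, with CD14 at 5.91, 9.93, 14.5 and 12.96 FPKM and CD68 at 0.587, 0.989, 2.27 and 1.23 FPKM as means of IMPA, IMA, SPA and SA. The summed level of the 6 was 4.42 to 8.38 FPKM in IMPA, 9.67 to 12.3 in IMA, 15.4 to 18.2 in SPA and 12.7 to 15.7 in SA. The 11 preadipocyte and fibroblast markers summed to 4677 to 7288 FPKM in IMPA, 6733 to 7512 in IMA, 11675 to 12171 in SPA and 10798 to 11269 in SA. The matrix genes DCN and COL3A1 held the most of this sum in SPA and SA, whereas DLK1, also called Pref-1, and CD34 were under 1 FPKM in every library. In bulk RNA, fewer cells of a type and less RNA per cell cannot be told apart.

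**Figure D1:**
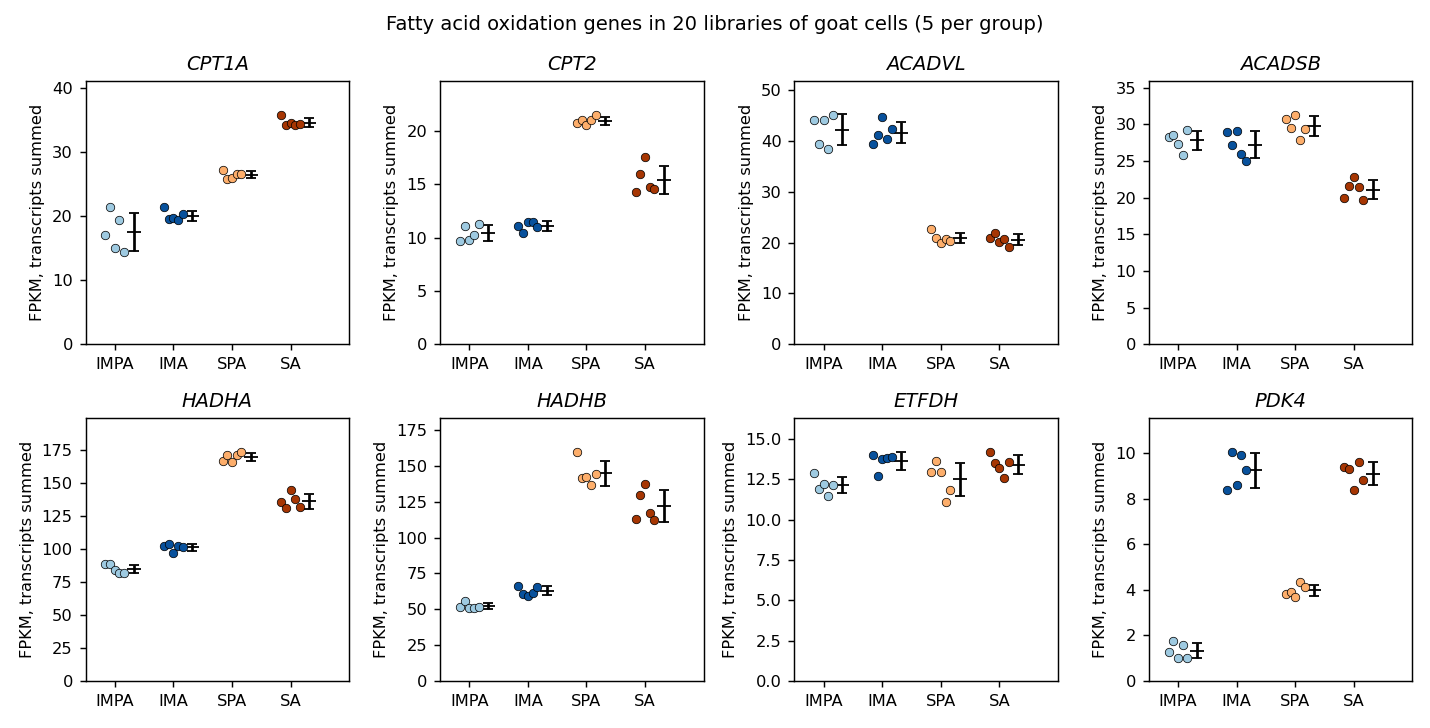
Level of each fatty acid oxidation gene (FPKM, transcripts summed, linear axes from 0) in the 5 libraries of IMPA, IMA, SPA and SA. Each point is a library, and the black mark and bar beside it give the group mean and SD. PDK4 was low in IMPA and SPA and near 9 FPKM in both adipocyte groups, ACADVL separated the cell types at both stages, and HADHA and HADHB were highest in SPA.

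PDK4, the pyruvate dehydrogenase kinase, had the largest change with induction of the 8 genes. Its level was 1.28, 1.74, 1.01, 1.57 and 1.03 FPKM in IMPA replicates 1 to 5 and 8.39, 10.1, 8.60, 9.94 and 9.28 FPKM in the IMA replicates. In the subcutaneous cells it was 3.80, 3.92, 3.70, 4.33 and 4.15 FPKM in SPA and 9.41, 9.31, 8.40, 9.61 and 8.83 FPKM in SA. Every adipocyte library was thus above every preadipocyte library, whichever the depot. The mean rose from 1.33 ± 0.326 FPKM (SD, n = 5) in IMPA to 9.25 ± 0.759 in IMA, a 6.98-fold change (log2 change of FPKM + 1 of 2.15, SE 0.0916, limma with Benjamini-Hochberg adjusted p = 3.8e-09). In subcutaneous cells the mean rose from 3.98 ± 0.258 FPKM in SPA to 9.11 ± 0.490 in SA, a 2.29-fold change (log2 change 1.02, SE 0.0523, adjusted p = 1e-08). The intramuscular rise was larger by 1.13 on the log2 scale (SE 0.107, adjusted p = 1.5e-08, limma interaction over 20 libraries). The preadipocytes differed before induction, with IMPA below SPA by a log2 difference of -1.11 (SE 0.0869, adjusted p = 1.3e-07). After it no difference between IMA and SA was found, with an estimate of 0.02 and a 95% interval of -0.11 to 0.15 (adjusted p = 0.79).

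PDK4 is 1 of 4 pyruvate dehydrogenase kinases, and all were measured. It made up 6.23% ± 1.07 of their summed FPKM in IMPA and 26.0% ± 1.39 in IMA, and 9.94% ± 0.700 in SPA and 25.4% ± 1.38 in SA (SD, n = 5). These shares are a description chosen after the values were seen. PDK1 rose from 10.0 ± 1.24 to 14.3 ± 0.951 FPKM between IMPA and IMA (adjusted p = 0.00017, limma) and fell from 26.7 ± 0.942 to 20.05 ± 1.74 FPKM between SPA and SA (adjusted p = 5.7e-05). PDK2 followed the same directions, from 6.82 to 9.08 FPKM in intramuscular cells (adjusted p = 0.00054) and from 8.35 to 5.86 FPKM in subcutaneous cells (adjusted p = 0.00067). For PDK3, at 3.01 FPKM or less in every group mean, neither stage change passed the test (adjusted p = 0.68 and 0.32). PDP2, a phosphatase that reverses the action of the kinases, fell in both cell types, by 0.61 on the log2 scale in intramuscular cells (adjusted p = 1e-06) and by 0.51 in subcutaneous cells (adjusted p = 8.1e-06). PDP1, the other phosphatase, rose in both, by 0.16 (adjusted p = 0.018) and 0.29 (adjusted p = 0.0038). PDK4 was thus the single kinase of the 4 that rose in both cell types.

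CPT1A, the carnitine palmitoyltransferase of the outer mitochondrial membrane and the step that malonyl-CoA inhibits, was highest in SA. It stood at 17.0, 21.4, 15.1, 19.4 and 14.4 FPKM in the IMPA replicates and at 21.3, 19.5, 19.6, 19.4 and 20.3 FPKM in the IMA replicates. Its level in SPA was 27.1, 25.8, 26.0, 26.6 and 26.5 FPKM and in SA 35.7, 34.1, 34.5, 34.1 and 34.3 FPKM. The IMPA and IMA libraries overlapped, whereas all SPA libraries were above them and all SA libraries above SPA. CPT1A rose between SPA (26.4 ± 0.524 FPKM) and SA (34.5 ± 0.650 FPKM) by 1.31-fold (log2 change 0.38, SE 0.0283, limma adjusted p = 3.5e-07). Between IMPA (17.5 ± 2.93 FPKM) and IMA (20.03 ± 0.787 FPKM) the log2 change was 0.20 (SE 0.0905, adjusted p = 0.072), and it passed the threshold when IMPA replicate 2 (0.28, adjusted p = 0.0083) or IMPA replicate 4 (0.24, adjusted p = 0.045) was left out. The difference between the cell types in this change, -0.17 on the log2 scale, did not pass the test (adjusted p = 0.14), but it did without IMPA replicate 5 (-0.23, adjusted p = 0.029). CPT1A was lower in intramuscular cells at both stages, by a log2 difference of -0.58 between IMPA and SPA (SE 0.0880, adjusted p = 5.8e-05) and -0.76 between IMA and SA (SE 0.0392, adjusted p = 3.6e-10).

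The wide spread of CPT1A in IMPA went with other values of the same libraries. IMPA replicates 2 and 4, which were highest in CPT1A, were also highest in PDK4 and lowest in ACADVL, at 39.5 and 38.5 FPKM. The summed level of the preadipocyte and fibroblast markers was 6007, 7288, 5227, 6659 and 4677 FPKM in IMPA replicates 1 to 5, the same order as CPT1A. The mapped share of reads that the paper lists is lowest in the same pair of libraries. The part of these measures in the CPT1A values was not tested.

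The muscle paralog of CPT1A, CPT1B, differed in pattern. It was at 1.19 ± 0.131 FPKM in IMPA and 5.81 ± 0.429 FPKM in IMA, and at 0.391 ± 0.107 FPKM in SPA and 0.225 ± 0.108 FPKM in SA. CPT1B reached the minimum mean of 1 FPKM only through the IMA libraries, so these levels are a description. CPT1A accordingly made up 80.0% ± 3.02 of the summed FPKM of CPT1A, CPT1B and CPT1C in IMPA and 70.6% ± 2.16 in IMA, and 91.7% ± 0.227 in SPA and 92.1% ± 0.910 in SA. These shares, too, were chosen after the values were seen. Of the 13 skeletal muscle markers, 12 rose between IMPA and IMA and MYOD1 fell, RYR1 being 1 that reached the minimum only through IMA, and their part in the CPT1B levels was not tested.

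CPT2, the partner enzyme on the inner mitochondrial membrane that turns acylcarnitine back into acyl-CoA, fell with induction in subcutaneous cells. Its values were 9.69, 11.1, 9.74, 10.2 and 11.3 FPKM in IMPA and 11.1, 10.4, 11.5, 11.5 and 11.004 FPKM in IMA. SPA held 20.7, 21.0, 20.5, 21.1 and 21.5 FPKM, and SA 14.3, 15.95, 17.5, 14.7 and 14.6 FPKM. The intramuscular groups overlapped, and no subcutaneous library was as low as the highest of them. The subcutaneous mean went from 21.0 ± 0.355 to 15.4 ± 1.34 FPKM, 0.735 of the SPA level (log2 change -0.42, SE 0.0511, limma adjusted p = 2.3e-05). Between IMPA (10.4 ± 0.743 FPKM) and IMA (11.1 ± 0.432 FPKM) the change of 0.09 did not pass the test (SE 0.0507, adjusted p = 0.16). The stage change of CPT2 differed between the cell types by 0.51 (SE 0.0723, adjusted p = 4.2e-06). CPT2 was lower in IMPA than in SPA by a log2 difference of -0.95 (SE 0.0453, adjusted p = 9.8e-10) and lower in IMA than in SA by -0.44 (SE 0.0569, adjusted p = 8.6e-06).

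Because CPT1A and CPT2 act in sequence, their ratio was formed in each library. CPT1A was 1.26 ± 0.0329 times CPT2 in SPA and 2.25 ± 0.205 times in SA (SD, n = 5), and the groups did not overlap (difference of log2 ratios 0.84, two-sided exact permutation p = 0.00794, adjusted over 8 tests 0.0159). In intramuscular cells the ratio was 1.68 ± 0.272 in IMPA and 1.81 ± 0.102 in IMA, a log2 difference of 0.12 that did not pass the test (exact permutation p = 0.397, adjusted 0.454). IMPA was above SPA (0.40 on the log2 scale, exact permutation p = 0.0159, adjusted 0.0254), and IMA was below SA (-0.32, exact permutation p = 0.00794, adjusted 0.0159). With 5 libraries against 5 the smallest two-sided p of this test is 0.00794. The order of the cell type means in this ratio was thus opposite at the 2 stages. IMPA and SPA overlapped, however, since IMPA replicate 5, at a log2 ratio of 0.356, lay within the SPA range of 0.295 to 0.391. SLC25A20, the carrier that exchanges acylcarnitine for carnitine between both enzymes, rose from 9.06 ± 0.589 FPKM in SPA to 13.1 ± 0.993 FPKM in SA (adjusted p = 2e-05), while IMPA (10.5 FPKM) and IMA (10.5 FPKM) gave no call (adjusted p = 0.92).

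**Figure D2:**
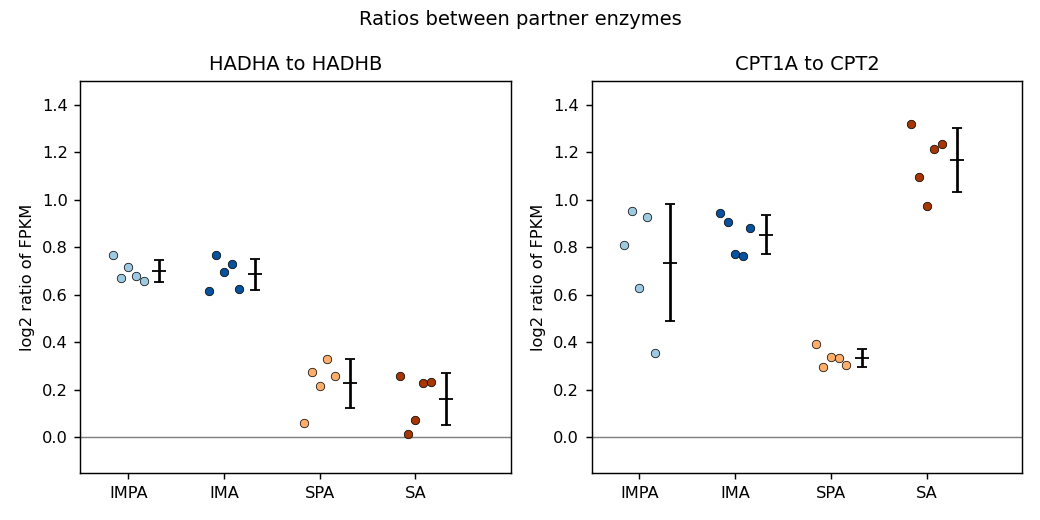
Log2 ratio of HADHA to HADHB (left) and of CPT1A to CPT2 (right) in each of the 20 libraries, with the group mean and SD in black. A value of 0 means equal FPKM. The HADHA to HADHB ratio separates the intramuscular from the subcutaneous libraries at both stages, and the CPT1A to CPT2 ratio separates SPA from SA.

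ACADVL, the dehydrogenase of very long acyl chains at the inner membrane, differed between the cell types and not detectably between the stages. It was at 44.1, 39.5, 44.1, 38.5 and 45.0 FPKM in the IMPA libraries and at 39.4, 41.3, 44.7, 40.3 and 42.4 FPKM in IMA. In SPA it was at 22.6, 20.8, 19.96, 20.8 and 20.3 FPKM and in SA at 21.0, 21.9, 20.1, 20.8 and 19.1 FPKM. The lowest intramuscular library was well above the highest subcutaneous one. The mean was 42.2 ± 3.01 FPKM in IMPA and 20.9 ± 1.02 in SPA, a 2.02-fold difference (log2 0.98, SE 0.0515, limma adjusted p = 2.6e-09). IMA (41.6 ± 2.04 FPKM) and SA (20.6 ± 1.03 FPKM) also differed by 2.02-fold (log2 0.98, SE 0.0472, adjusted p = 1.5e-10). With induction the log2 change was -0.02 in intramuscular cells, with a 95% interval of -0.13 to 0.09 (adjusted p = 0.77). In subcutaneous cells it was -0.02, with an interval of -0.12 to 0.08 (adjusted p = 0.73). ACADVL was the only gene of the 8 that was higher in intramuscular cells at both stages. ACADL, the long-chain dehydrogenase, was also higher in IMPA than in SPA (29.9 against 22.2 FPKM, adjusted p = 3.3e-06) and in IMA than in SA (28.8 against 18.7 FPKM, adjusted p = 5.7e-09).

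ACADSB, the dehydrogenase of short branched chains that also serves isoleucine breakdown, was set apart by a fall in SA. Its levels were 28.3, 28.5, 27.4, 25.8 and 29.2 FPKM in IMPA and 28.9, 27.2, 29.2, 25.9 and 25.0 FPKM in IMA. The SPA libraries held 30.8, 29.5, 31.2, 27.9 and 29.4 FPKM and those of SA 19.9, 21.6, 22.8, 21.4 and 19.6 FPKM. IMPA, IMA and SPA overlapped with their neighbours, and all SA libraries lay below them. ACADSB fell from 29.8 ± 1.304 FPKM in SPA to 21.1 ± 1.31 in SA (log2 change -0.48, SE 0.0465, limma adjusted p = 3.4e-06). Between IMPA (27.9 ± 1.302 FPKM) and IMA (27.2 ± 1.80 FPKM) it changed by -0.03 (95% interval -0.14 to 0.08, limma adjusted p = 0.6). The stage changes differed by 0.45 (SE 0.0697, adjusted p = 1.5e-05). IMA was above SA by 0.35 (SE 0.0550, adjusted p = 4.9e-05). The difference between IMPA and SPA, -0.09, missed the threshold (SE 0.0422, adjusted p = 0.063) and passed it without IMPA replicate 5 (-0.11, adjusted p = 0.04) or SPA replicate 4 (-0.12, adjusted p = 0.027).

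HADHA and HADHB encode the alpha and beta subunits of the mitochondrial trifunctional protein, which carries out the hydratase, second dehydrogenase and thiolase steps on long chains. They were the most abundant of the 8 genes per length in every group. HADHA was at 88.1, 88.3, 84.2, 81.9 and 81.7 FPKM in IMPA and at 102, 104, 96.4, 102 and 101 FPKM in IMA. In the subcutaneous cells HADHA was at 166, 171, 165, 171 and 173 FPKM in SPA and at 135, 131, 145, 138 and 132 FPKM in SA. The 4 groups did not overlap in HADHA and stood in the order SPA, SA, IMA, IMPA. HADHB was at 51.7, 55.5, 51.2, 51.1 and 51.8 FPKM in IMPA and at 66.5, 60.9, 59.6, 61.4 and 65.6 FPKM in IMA. SPA held 160, 141, 142, 136 and 145 FPKM of HADHB, and SA 113, 129, 138, 117 and 112 FPKM. The order of the groups was the same for HADHB, except that SA replicate 3 reached into the range of SPA.

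The subunits changed together and in opposite directions in the 2 cell types. HADHA rose from 84.8 ± 3.21 FPKM in IMPA to 101 ± 2.69 in IMA (log2 change 0.25, SE 0.0348, limma adjusted p = 8e-05) and fell from 169 ± 3.37 FPKM in SPA to 136 ± 5.57 in SA (log2 change -0.32, SE 0.0329, adjusted p = 6.4e-06). HADHB rose from 52.3 ± 1.86 FPKM in IMPA to 62.8 ± 3.08 in IMA (0.26, SE 0.0404, adjusted p = 0.00017) and fell from 145 ± 8.82 FPKM in SPA to 122 ± 11.2 in SA (-0.25, SE 0.0612, adjusted p = 0.0046). The stage changes differed between the cell types by 0.56 for HADHA (SE 0.0478, adjusted p = 2.3e-09) and by 0.51 for HADHB (SE 0.0761, adjusted p = 8.5e-06). Both subunits were lower in intramuscular cells. IMPA held 0.501 of the SPA level of HADHA (log2 difference -0.99, SE 0.0327, adjusted p = 2.8e-11) and 0.361 of that of HADHB (-1.45, SE 0.0434, adjusted p = 1e-11). After induction the differences were smaller, at -0.42 for HADHA (SE 0.0391, adjusted p = 2.3e-07) and -0.94 for HADHB (SE 0.0592, adjusted p = 3.3e-09).

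The 2 genes lie next to each other in the RefSeq annotation of the goat, yet their ratio differed between the cell types. HADHA was 1.62 ± 0.0518 times HADHB in IMPA and 1.61 ± 0.0740 times in IMA, against 1.17 ± 0.0805 in SPA and 1.12 ± 0.0840 in SA (SD, n = 5). Every intramuscular library was above every subcutaneous one. The log2 ratio was higher in IMPA than in SPA by 0.47 and in IMA than in SA by 0.52, each with a two-sided exact permutation p of 0.00794 (adjusted over 8 tests 0.0159). With induction it changed by -0.01 in intramuscular cells (exact permutation p = 0.722, adjusted 0.722) and by -0.07 in subcutaneous cells (exact permutation p = 0.302, adjusted 0.402). HADHB therefore differed more than HADHA between the cell types, and the subunits moved in step within each. The table holds 1 transcript of HADHA and 2 of HADHB, and the main HADHB transcript held 97.0% to 97.9% of the gene's FPKM as a group mean.

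ETFDH, which passes the electrons of the acyl-CoA dehydrogenases from the electron transfer flavoprotein to ubiquinone, varied least. It stood at 12.9, 11.9, 12.2, 11.5 and 12.2 FPKM in IMPA and 14.0, 12.7, 13.8, 13.8 and 13.9 FPKM in IMA. Subcutaneous cells had 12.9, 13.7, 13.0, 11.1 and 11.8 FPKM in SPA and 14.2, 13.5, 13.2, 12.6 and 13.6 FPKM in SA. All neighbouring groups overlapped. ETFDH rose from 12.1 ± 0.517 FPKM in IMPA to 13.6 ± 0.539 in IMA (log2 change 0.16, SE 0.0423, limma adjusted p = 0.0073). In subcutaneous cells the change from 12.5 ± 1.02 to 13.4 ± 0.591 FPKM did not pass the test (0.10, SE 0.0551, adjusted p = 0.16), and neither did the difference between the 2 changes (0.06, adjusted p = 0.48). The depots gave no call, with a log2 difference of -0.04 between IMPA and SPA (95% interval -0.15 to 0.08, adjusted p = 0.55) and 0.02 between IMA and SA (-0.08 to 0.12, adjusted p = 0.66). Of the flavoprotein itself, the subunit gene ETFB rose from 58.3 ± 4.38 FPKM in IMPA to 83.5 ± 2.10 in IMA (adjusted p = 3.2e-06) and was at 118 ± 9.86 FPKM in SPA and 119 ± 12.4 in SA. ETFA, the other subunit, was at 69.7 to 74.3 FPKM in the 4 group means, with no call in either stage comparison (adjusted p = 0.41 and 0.97).

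**Figure D3:**
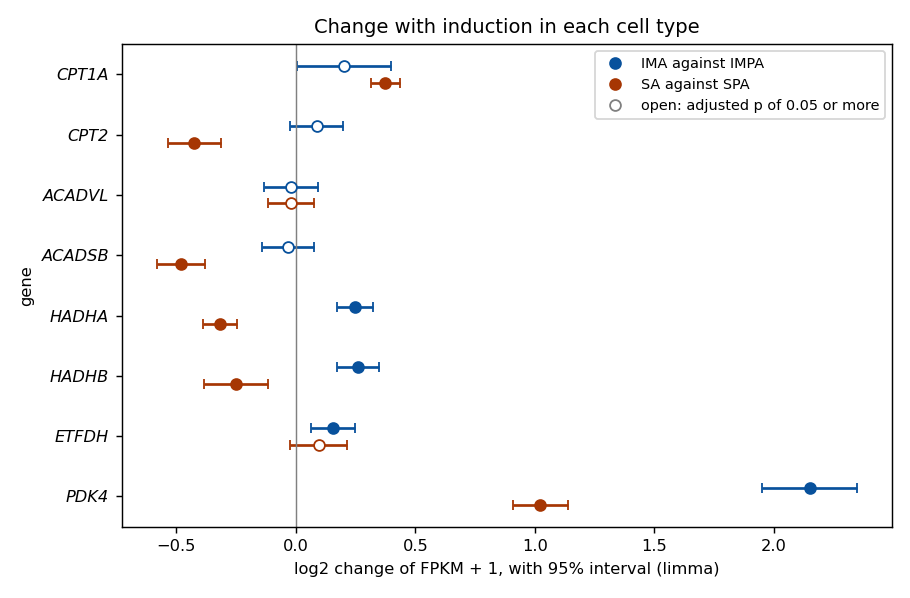
Log2 change of FPKM + 1 with induction for each gene, IMA against IMPA in blue and SA against SPA in brown, with 95% intervals from limma. Filled points have an adjusted p under 0.05. HADHA and HADHB lie on opposite sides of 0 in the 2 cell types, CPT2 and ACADSB fell in SA, and PDK4 rose in both.

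With induction of intramuscular cells, 4 of the 8 genes rose (PDK4, HADHA, HADHB and ETFDH) and none fell by limma at an adjusted p under 0.05. Among all 11432 genes tested, 60.1% were called, 19.9% as higher and 40.2% as lower in IMA. Over all genes the higher calls were 33.14% of the calls, 27.8% when the mRNA sums were set equal and 42.33% after quantile normalization. The lower calls held no member, and ACADVL and ACADSB, the 2 genes with negative estimates, had adjusted p values of 0.77 and 0.6. The IMPA and IMA libraries did not overlap for 3 of the 8 genes, HADHA, HADHB and PDK4, against 43.5% of all genes. The median log2 change was 0.18 over the 8 genes and -0.09 over all genes.

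In subcutaneous cells 6 of the 8 genes were called, 2 as higher in SA (PDK4 and CPT1A) and 4 as lower (CPT2, ACADSB, HADHA and HADHB). All genes were called in 52.1% of cases, 26.1% as higher and 26% as lower. Over all genes the higher calls were 50.06% of the calls, and 36.48% when the mRNA sums of the libraries were set equal, while the counts of the 8 genes stayed at 2 and 4. For 5 of the 8 genes the SPA and SA libraries did not overlap, against 38.8% of all genes. The median log2 change was -0.14 over the 8 genes and -0.01 over all.

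The stage change differed between the cell types for 5 of the 8 genes (CPT2, ACADSB, HADHA, HADHB and PDK4), each time with the more positive change in intramuscular cells. Of all genes 55.3% were called in this interaction, 20.7% with the more positive intramuscular change and 34.6% with the more negative one. Calls with the more positive intramuscular change were 37.47% of these calls, and 48.45% after quantile normalization. The median difference was 0.48 over the 8 genes and -0.08 over all genes. Other lists moved in the 2 comparisons as well. Of 12 proliferation genes, 9 fell and none rose between IMPA and IMA, TOP2A, CDK1 and CCNB2 being those not called, and all 12 rose between SPA and SA. Their summed level was 182 to 218 FPKM in IMPA, 153 to 184 in IMA, 90.7 to 103 in SPA and 362 to 405 in SA. Of 9 tested preadipocyte and fibroblast markers, 6 fell and 1 rose between SPA and SA, with a median log2 change of -0.37, and THY1 went from 37.4 ± 2.18 to 15.6 ± 1.09 FPKM (limma adjusted p = 2.4e-09). Between IMPA and IMA 2 of the 9 fell and 1 rose. CD14 and CD68 rose between IMPA and IMA (log2 changes 0.70 and 0.33, limma adjusted p = 0.0022 and 0.0019), and CD68 fell between SPA and SA (-0.55, adjusted p = 0.00011). The part of proliferation and of these markers in the changes of the 8 genes was not tested.

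**Figure D4:**
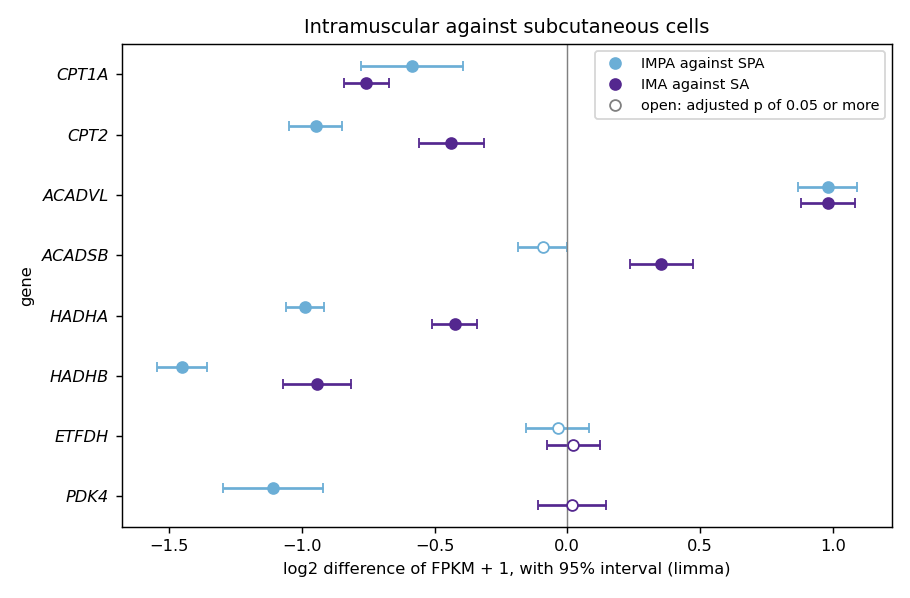
Log2 difference of FPKM + 1 between intramuscular and subcutaneous cells for each gene, IMPA against SPA in light blue and IMA against SA in purple, with 95% intervals from limma. Positive values are higher in intramuscular cells, and filled points have an adjusted p under 0.05. ACADVL stands near 1 at both stages, and CPT1A, CPT2, HADHA and HADHB are below 0 at both.

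Between the preadipocytes 6 of the 8 genes differed, with CPT1A, CPT2, HADHA, HADHB and PDK4 lower in IMPA and ACADVL higher. The background was high, since 75.1% of all genes were called, 42.3% as higher and 32.9% as lower in IMPA. The higher calls were 56.25% of the calls, and 46.45% after quantile normalization, with the median over all genes at -0.03. For the same 6 genes the IMPA and SPA libraries did not overlap, against 63.4% of all genes. The median log2 difference was -0.77 over the 8 genes and 0.05 over all genes. Between the adipocytes 6 genes differed too, with CPT1A, CPT2, HADHA and HADHB lower in IMA and ACADVL and ACADSB higher. Here 72.4% of all genes were called, 29% as higher and 43.4% as lower in IMA. Again the libraries of these 6 genes did not overlap, against 58.6% of all genes, and the median log2 difference was -0.20 over the 8 genes and -0.09 over all. The number of genes called is thus close to the background in both comparisons. As these comparisons share libraries with those of the stages, they are not separate evidence. The muscle marker sums given above were higher in intramuscular cells at both stages. Of 9 preadipocyte and fibroblast markers, 6 were lower and 1 higher in IMPA than in SPA, with a median log2 difference of -1.07, and 6 were lower and 2 higher in IMA than in SA, with a median of -0.47. DCN was at 660 ± 103 FPKM in IMPA against 5441 ± 135 in SPA, and PDGFRA at 148 ± 14.97 against 572 ± 14.7. The part of these markers in the depot differences was not tested.

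The 8 genes together held 0.0641% ± 0.00145 of the summed mRNA FPKM in IMPA, 0.0722% ± 0.000699 in IMA, 0.113% ± 0.00151 in SPA and 0.0930% ± 0.00210 in SA (SD, n = 5). These shares follow mainly HADHA and HADHB, the most abundant of them. By mean FPKM the order within a library group was HADHA, HADHB, ACADVL, ACADSB, CPT1A, ETFDH, CPT2 and PDK4 in both intramuscular groups. In SPA, CPT1A and CPT2 were above ACADVL, and in SA CPT1A came directly after the trifunctional subunits.

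Of the genes with more than 1 transcript, ACADVL and HADHB were examined for a shift between transcripts. The main ACADVL transcript held 94.1% ± 4.24 of the gene's FPKM in IMPA, 90.0% ± 3.56 in IMA, 86.6% ± 9.14 in SPA and 88.8% ± 10.5 in SA. The other was listed at 0 in IMPA replicate 5, SPA replicate 2 and SA replicates 1 and 4. None of the 8 differences of transcript shares passed the exact permutation test after adjustment, with the smallest p at 0.0556 (adjusted 0.36), for a main HADHB transcript share 0.913 percentage points higher in IMA than in SA.

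Lists of genes around the pathway were described in the same fits. Of 98 tested genes of 11 related lists, 27 rose and 29 fell between IMPA and IMA, and 23 rose and 37 fell between SPA and SA. These calls were 57.1% and 61.2% of the list genes, against 60.1% and 52.1% of all genes tested. Over all genes 19.9% rose and 40.2% fell in intramuscular cells, and 26.1% rose and 26% fell in subcutaneous cells. The counts of each list below stand beside these shares. The intramuscular rises include CPT1B, CD36, UCP2 and IMPA2, which reached the minimum mean only through IMA. The hydratases, isomerases and thiolases other than the trifunctional protein split evenly in intramuscular cells, with 4 of 8 up and 4 down. ACAA2, a thiolase, rose from 70.0 ± 3.33 to 92.6 ± 3.26 FPKM (limma adjusted p = 6.3e-06), whereas ECHS1, the short-chain hydratase, fell from 71.1 ± 4.39 to 49.6 ± 2.32 FPKM (adjusted p = 4.3e-06). In subcutaneous cells 2 of these 8 rose and 3 fell, and ECI1, an enoyl-CoA isomerase, went from 34.3 ± 0.652 to 26.6 ± 1.26 FPKM (adjusted p = 5.6e-06). The other acyl-CoA dehydrogenases and flavoprotein subunits had 2 of 9 up and 2 down in intramuscular cells and none up and 4 down in subcutaneous cells, where ACAD8, ACADS, ACADL and GCDH fell. The median log2 change of this list was -0.03 in intramuscular and -0.14 in subcutaneous cells.

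Acyl-CoA synthetases, which activate fatty acids before they enter, had 2 of 7 up and 3 down in intramuscular cells and none up and 3 down in subcutaneous cells. ACSL1 rose from 4.68 ± 0.240 to 8.70 ± 0.921 FPKM between IMPA and IMA (limma adjusted p = 2e-06) and fell from 7.23 ± 0.303 to 3.84 ± 0.144 FPKM between SPA and SA (adjusted p = 3.2e-08). The opposite changes of ACSL1 differed by 1.54 on the log2 scale (adjusted p = 7.2e-13), the same sense as for the trifunctional subunits. In the malonyl-CoA axis, which sets the inhibitor of CPT1A, 3 of 7 genes rose and 1 fell in intramuscular cells, and 3 rose and 2 fell in subcutaneous cells. MLYCD, which breaks malonyl-CoA down, rose from 5.67 ± 0.399 to 8.24 ± 0.606 FPKM in intramuscular cells (adjusted p = 3e-05) and fell from 5.75 ± 0.343 to 4.30 ± 0.322 FPKM in subcutaneous cells (adjusted p = 0.00027). ACACA, which makes it, rose from 5.77 ± 0.286 to 8.31 ± 0.321 FPKM in subcutaneous cells (adjusted p = 4.3e-06) and gave no call in intramuscular cells (adjusted p = 0.096).

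Of 9 tested PPAR target genes outside oxidation, 8 were called as higher in IMA than in IMPA. However, 3 of them (CD36, UCP2 and IMPA2) reached the minimum mean only through the IMA libraries and so had to be higher there, and of the other 6 genes 5 rose. CD36, a fatty acid transporter, was at 0.252 ± 0.125 FPKM in IMPA and 4.91 ± 0.356 in IMA, and UCP2, an uncoupling protein, at 0.889 ± 0.249 and 8.10 ± 1.45 FPKM. The inositol monophosphatase gene IMPA2, whose name has nothing to do with the IMPA group, was at 1.40 ± 0.157 and 8.43 ± 1.12 FPKM. PLIN2, a lipid droplet coat protein, rose from 49.8 ± 12.5 to 166 ± 23.0 FPKM (limma adjusted p = 2.5e-06). In subcutaneous cells 3 of the 9 were called as higher, CD36 among them, and 1 as lower. There PLIN2 rose from 257 ± 5.58 to 396 ± 17.5 FPKM (adjusted p = 2.7e-08) and ANGPTL4, an inhibitor of lipoprotein lipase, from 41.0 ± 1.72 to 56.6 ± 3.596 FPKM (adjusted p = 5e-06). CD36 was under 1 FPKM in both subcutaneous means, at 0.0679 ± 0.0277 in SPA and 0.934 ± 0.360 in SA. PPARA, PPARD, PPARG and PPARGC1A themselves had means under 1 FPKM over the 20 libraries and were not tested, and of the 6 receptors and coactivators that were, 3 fell in intramuscular and 4 in subcutaneous cells. Several of these target genes are also expressed by muscle, whose markers rose in the same comparison, and their part was not tested.

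Among the remaining lists, peroxisomal oxidation had 2 of 12 genes up and 2 down in intramuscular cells and 3 up and 6 down in subcutaneous cells, led by a fall of DECR2, a dienoyl-CoA reductase (log2 change -0.57, limma adjusted p = 3.5e-07). Ketone and branched-chain amino acid degradation had 1 of 17 up and 7 down in intramuscular cells and 4 up and 8 down in subcutaneous cells. Nuclear genes of mitochondrial content had none of 9 up and 2 down in intramuscular cells, and 4 up and 1 down in subcutaneous cells. In subcutaneous cells HSPD1 and SDHB were among those that rose, and SDHA fell. The carnitine shuttle other than CPT1A and CPT2 had 1 of 4 genes up and 2 down in intramuscular cells. In subcutaneous cells 2 were up and 1 down. CPT1B, described above, was the gene up in the first and down in the second. It reached the minimum mean only through IMA and was under 1 FPKM in both subcutaneous means, so its calls are a description.

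**Figure D5:**
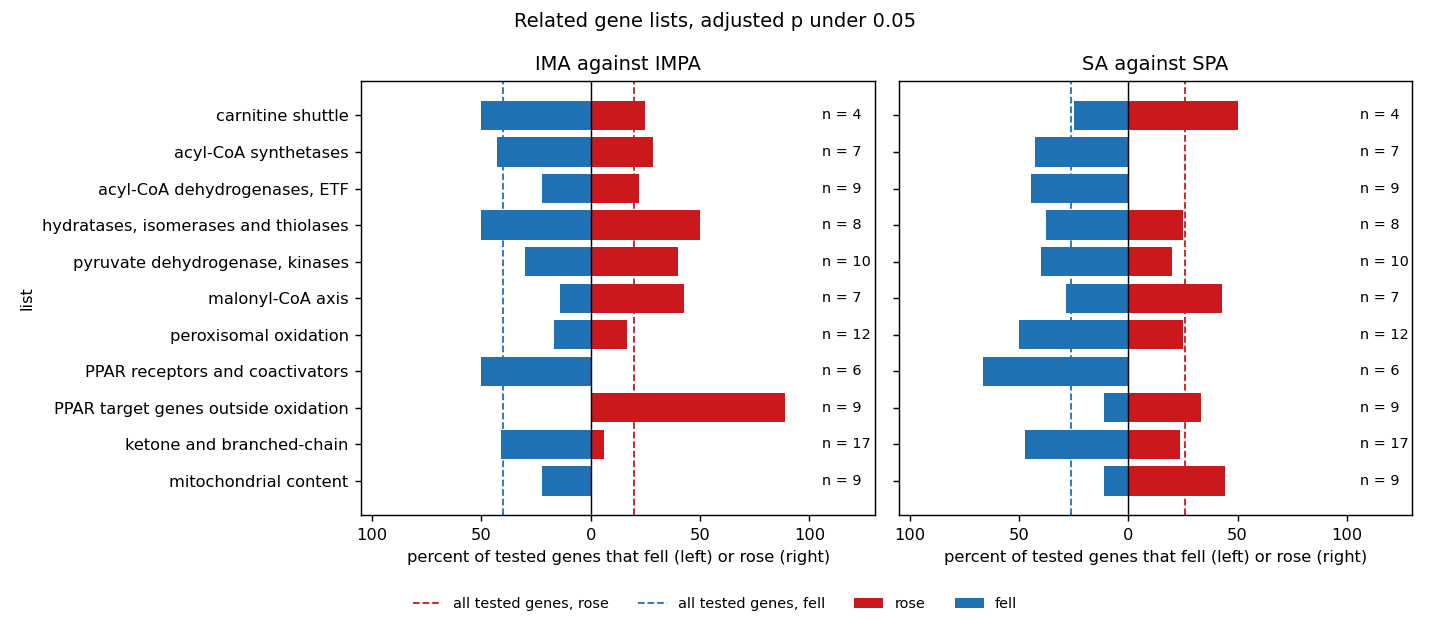
Share of the tested genes of each related list that rose (right, red) or fell (left, blue) with induction at an adjusted p under 0.05, in intramuscular (left panel) and subcutaneous cells (right panel), with the number tested at the right of each row. Dashed lines give the shares over all 11432 genes. PPAR target genes outside oxidation were higher in IMA in 8 of 9 cases, 3 of which passed the minimum level only through IMA. The single rise of the carnitine shuttle in intramuscular cells, CPT1B, also passed it only through IMA. Acyl-CoA synthetases and dehydrogenases had no rise in subcutaneous cells.

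For each gene the 3 tested genes of most similar profile were found by the root mean square difference of centred log2(FPKM + 1) over the 20 libraries, which is a description. HADHA was nearest to PEX3, a peroxisome assembly gene, at 0.0641, then LIFR and UAP1, while its own SD was 0.383. HADHB was nearest to ARPC1B, ARID3A and GNG11, at 0.108 to 0.109 against an SD of 0.617. CPT1A was nearest to MBOAT1, an acyltransferase gene, at 0.0625 against an SD of 0.382, followed by IVNS1ABP and LOC102185742. CPT2 was nearest to the glycolytic gene PGAM1 (0.0843), then GGCX and MAP2K1. ACADVL had ARFGAP2, SYTL2 and SH3GLB1 as neighbours at 0.0745 to 0.0857, against an SD of 0.496. ACADSB (NIN, HMOX2 and EIF3H) and ETFDH (NDEL1, BLMH and INIP) had close neighbours, but varied little themselves, with SDs of 0.195 and 0.0926. PDK4 had no near neighbour, since the closest, IL1A, FN1 and CAPN6, lay at 0.392 to 0.407 against its own SD of 0.891. The 2 trifunctional subunits did not appear among each other's 3 nearest genes.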

How the data were processed

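Strand-specific libraries of total RNA from 20 samples were sequenced on an Illumina HiSeq. The authors aligned reads to the goat genome ARS1 with HISAT2 (2.0.4 in the submitters' processing notes) and assembled transcripts with Scripture and Cufflinks, and they deposited FPKM values per transcript and library, for which the methods name StringTie (1.3.1), Ballgown and Cuffdiff. Whether counting used the strand is not given in the sources used here, and ACADVL and ETFDH overlap small RNA or pseudogene entries in the RefSeq table, which names assembly ARS1.2 and was used for names and neighbours. The files hold no counts, so how many fragments lie behind any 1 value cannot be given, nor a counting interval. The paper lists mapped reads and GC content per library. Both the mapped share and the GC content were higher in every IMPA library than in any of the other groups. These were not used in the fits, and their part in the differences from IMPA was not tested. The mRNA FPKM of a library summed to 373889 to 413880, and 15126 to 16961 symbols were above 0.

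FPKM were summed per symbol and analysed as log2(FPKM + 1), so changes of low genes are understated. Symbols that averaged 1 FPKM or more across all libraries were fitted with limma 3.58.1 (R 4.3.3), with a variance trend, in pairwise fits of 10 libraries without a block. The interaction was fitted over 20 libraries. P values are two-sided, with Benjamini-Hochberg adjustment across the 11432 genes. Ratios and transcript shares, 8 tests each, were compared by exact permutation over 252 divisions (Python 3.11.15 with numpy 2.4.6). Steps were tested on simulated data. Figures were drawn with matplotlib 3.10.9. Members and lists were chosen with earlier results of these data known. Genes named from a list are among the up to 3 with the smallest adjusted p in a comparison or close relatives of a member, and any others were picked with their values in view. The alternatives tried were other minimum levels, a pseudocount of 0.1, 3 scalings, other variance models, single transcripts, a replicate block and leaving out libraries. The ratio of ACADVL to ACADM, planned, was not computed because ACADM was not analysed. lncRNA tables entered only the total FPKM of a library and the alternative that tested transcripts singly.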

Additional observations from a re-analysis of the deposited data

Results flagged for a closer look

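The change with induction differed between intramuscular and subcutaneous cells for 5 of the 8 genes (limma interaction over the 20 libraries). Of all genes tested, 55.3% were called in the same interaction. The difference, intramuscular minus subcutaneous, was 1.13 for PDK4 (adjusted p = 1.5e-08), 0.56 for HADHA (adjusted p = 2.3e-09), 0.51 for CPT2 (adjusted p = 4.2e-06), 0.51 for HADHB (adjusted p = 8.5e-06) and 0.45 for ACADSB (adjusted p = 1.5e-05), on the log2 scale.

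A single library stood apart from the other 4 of its group by Dixon's criterion in 5 of the 48 sets of 5 values examined, where chance gives about 1 in 20. CPT1A was highest in SA replicate 1, at 35.7 FPKM. HADHB was highest in IMPA replicate 2, at 55.5 FPKM. ETFDH was lowest in IMA replicate 2, at 12.7 FPKM. The main HADHB transcript held the largest share of the gene in IMA replicate 4, at 98.6%, and in SPA replicate 2, at 98.3%.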

How the results depend on the processing

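All 246 alternative counts of genes called, for the 8 genes and for the related lists in 5 comparisons, were within 1.5 times the main count. Without 1 library, 4 to 5 of the 8 genes were called in IMA against IMPA, 6 in SA against SPA, 6 to 7 between the preadipocytes, 6 between the adipocytes, and 5 to 6 in the interaction. Same-numbered libraries deviated together weakly or not at all, with correlations of -0.242 to 0.122 and a median of 0.0398 in 20 pairs. Those of IMA and IMPA were all positive, at 0.0417 to 0.121. The numbers are not tied to goats, so a pairing could not be checked, and the main fits did not pair libraries. With a replicate block 4, 6, 6, 6 and 5 genes were called in these comparisons, and no call of the 8 genes changed. No called change reversed under any alternative. Of 984 alternative log2 changes, 27 reversed and 12 passed the threshold that the main value missed. Besides those that leave out a library, the latter were CPT1A between IMA and IMPA with upper-quartile scaling (0.24), quantile normalization (0.25) and 4 groups in one fit (0.20), CPT2 there with quantile normalization (0.17), and ACADSB between IMPA and SPA with upper-quartile scaling (-0.14), quantile normalization (-0.15) and equal mRNA sums (-0.12).

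The reversed log2 changes were all uncalled and small, and the cause was not tested. Between IMA and IMPA they were 0.019 (upper-quartile) and 0.0050 (quantile) for ACADVL. For ACADSB they were 0.0056 (upper-quartile), 0.0072 (quantile) and 0.0029 (ordinary model with a covariate). The covariate was a library's standardized sum of log2(FPKM + 1) over expressed symbols below its upper quartile, not a number of reads. Between SA and SPA, ACADVL stood at 0.012 for its main transcript, alone or among all transcripts, and at 0.031 without SPA replicate 1 and SA replicate 5 together. In the interaction ACADVL gave -0.094 and -0.051 under the same alternatives. Between IMA and SA, PDK4 gave -0.026 with the covariate, and ETFDH -0.024 for its main transcript. Leaving out single libraries gave ACADVL -0.051 to 0.0042 between IMA and IMPA, -0.042 to 0.0070 between SA and SPA and -0.031 to 0.025 in the interaction, and PDK4 -0.0098 to 0.049 between IMA and SA. The HADHA to HADHB log2 ratio gave -0.033 to 0.0052 between IMA and IMPA. The main transcript's share differed by -0.636 to 5.53 (SA against SPA) and -1.43 to 4.05 (IMA against SA) percentage points for ACADVL, and by -0.508 to 0.0040 (SA against SPA) for HADHB. Of 168 alternative ratios and shares, 11 reversed and 4 transcript shares passed an unadjusted 0.05 that the main value missed, each without 1 library. FPKM without counts leave the depth of low values, such as PDK4 in IMPA, unknown.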

Other observations

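The minor transcripts of ETFDH and ACADSB varied widely between libraries. The minor ETFDH transcript ranged from 0.0574 to 1.43 FPKM in SPA and the minor ACADSB transcript from 0.0233 to 1.51 FPKM in SPA, while the gene sums ranged from 11.1 to 13.7 FPKM for ETFDH and from 27.9 to 31.2 FPKM for ACADSB. UXT, the reference gene of the study's qPCR, fell by 0.22 on the log2 scale between IMPA and IMA (limma adjusted p = 0.016) and by 0.20 between SPA and SA (adjusted p = 0.044).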
